A study of Mus musculus with 18 samples.

Results

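The regions described here are 6 stretches of the mouse genome (build mm10) that hold genes of the contractile apparatus of muscle, defined by position: the cluster of fast myosin heavy chain genes (chr11:67050001-67400000), the Myh6/Myh7 pair (chr14:54930001-55000000), Ttn (chr2:76700001-76990000), Neb (chr2:52130001-52385000), Ryr1 (chr7:28995001-29130000) and Cacna1s (chr1:136045001-136125000). Together they span 1180 kb and 2360 of the 5128560 500-bp bins in which DNA methylation was measured. The fast Myh cluster gave 700 bins, Myh6/Myh7 140, Ttn 580, Neb 510, Ryr1 270 and Cacna1s 160. MBD-seq, in which a methyl-CpG-binding domain protein pulls down methylated fragments for sequencing, was used, so the read count of a bin rises both with its methylation and with the number of CpGs in it. Female C57BL/6J mice were used at ages of 2, 20 and 28 months (2 m, 20 m and 28 m). T cells, isolated with magnetic beads from the spleens of the same mice as the muscle, gave 1 MBD-seq library per age. Hindlimb muscle was captured 2 times per age. The values used here hold 1 muscle column per age, called 1 library below, without saying whether it is either capture or both. Each library was a pool of DNA from 3 mice. Muscle RNA from the 3 mice of each age was sequenced mouse by mouse (RNA-seq), which gave 9 libraries. Whole muscle holds nuclei of fibre types, blood vessels, connective tissue and blood cells, and no gene was altered in any group.

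Myosin heavy chains are the motor proteins of the thick filament. In the mouse their fast isoforms lie side by side on chromosome 11: Myh3 (embryonic), Myh2 (IIa), Myh1 (IIx), Myh4 (IIb), Myh8 (perinatal) and Myh13 (extraocular). The Myh6 and Myh7 genes on chromosome 14 encode the alpha and beta chains of heart muscle, and Myh7 is also the chain of slow skeletal fibres. Titin (Ttn) is the giant spring that spans from Z-disc to M-line, and nebulin (Neb) lines the thin filament. The ryanodine receptor Ryr1 is the calcium release channel of the sarcoplasmic reticulum, and Cacna1s is the pore of the voltage sensor that opens it. DNA methylation of CpG sites in promoters and enhancers is commonly low where a gene is used, whereas gene bodies can carry methylation in cells that transcribe them.

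To show the DNA behind the largest differences, the central 300 bases of 1 bin are given for each of 5 loci as the + strand of mm10, with each CpG in capitals. This is the bin with the strongest difference within the run of neighbouring bins whose summed difference was largest, all lower in muscle; for Ryr1 a bin higher in muscle is shown as well. The CpG number ranged from 3 CpGs in the Neb and Myh6/Myh7 windows to 38 in the second Ryr1 window.
Ryr1, lower in muscle, chr7:29043601-29043900, 6 CpGs: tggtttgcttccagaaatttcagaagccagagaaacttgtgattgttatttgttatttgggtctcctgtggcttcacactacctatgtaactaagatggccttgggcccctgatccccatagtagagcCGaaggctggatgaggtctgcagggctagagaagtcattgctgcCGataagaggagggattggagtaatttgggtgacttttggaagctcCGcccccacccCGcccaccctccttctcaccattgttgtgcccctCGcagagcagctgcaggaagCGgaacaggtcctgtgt
Ryr1, higher in muscle, chr7:29019601-29019900, 38 CpGs: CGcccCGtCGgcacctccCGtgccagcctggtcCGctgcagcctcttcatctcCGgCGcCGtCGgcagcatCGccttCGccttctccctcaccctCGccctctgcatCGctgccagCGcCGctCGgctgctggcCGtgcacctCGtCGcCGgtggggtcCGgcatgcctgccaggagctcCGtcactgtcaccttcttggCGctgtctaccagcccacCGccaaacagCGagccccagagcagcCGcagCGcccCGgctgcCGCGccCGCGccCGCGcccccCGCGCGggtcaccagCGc
Neb, lower in muscle, chr2:52270601-52270900, 3 CpGs: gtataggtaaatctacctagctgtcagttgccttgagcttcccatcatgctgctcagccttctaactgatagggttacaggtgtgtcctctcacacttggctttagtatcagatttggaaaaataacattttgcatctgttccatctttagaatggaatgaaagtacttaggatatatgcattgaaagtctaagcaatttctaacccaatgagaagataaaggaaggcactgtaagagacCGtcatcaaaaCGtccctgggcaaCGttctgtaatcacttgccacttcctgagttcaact
Ttn, lower in muscle, chr2:76909101-76909400, 7 CpGs: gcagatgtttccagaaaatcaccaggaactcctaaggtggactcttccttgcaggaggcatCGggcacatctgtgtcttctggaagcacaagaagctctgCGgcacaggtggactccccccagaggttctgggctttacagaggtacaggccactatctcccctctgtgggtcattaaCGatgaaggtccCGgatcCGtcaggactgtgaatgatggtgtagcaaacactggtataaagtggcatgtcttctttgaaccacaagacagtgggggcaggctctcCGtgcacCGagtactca
Fast Myh cluster, between genes, lower in muscle, chr11:67125101-67125400, 5 CpGs: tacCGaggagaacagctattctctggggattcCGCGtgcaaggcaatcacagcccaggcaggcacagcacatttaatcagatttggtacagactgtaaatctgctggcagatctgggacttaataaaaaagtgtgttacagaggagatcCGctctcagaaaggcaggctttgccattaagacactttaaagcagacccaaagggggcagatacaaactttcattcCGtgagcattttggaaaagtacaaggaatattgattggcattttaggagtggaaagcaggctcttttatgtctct
Myh6/Myh7, exon of the non-coding gene Gm31251, lower in muscle, chr14:54997101-54997400, 3 CpGs: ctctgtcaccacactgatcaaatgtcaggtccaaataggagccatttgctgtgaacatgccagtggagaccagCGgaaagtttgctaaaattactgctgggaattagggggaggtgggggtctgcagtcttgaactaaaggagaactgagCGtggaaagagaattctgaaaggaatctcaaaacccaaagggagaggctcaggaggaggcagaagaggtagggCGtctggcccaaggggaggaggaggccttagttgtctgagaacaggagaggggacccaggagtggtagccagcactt

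Of the promoters that held a bin lower in muscle, those of 4 genes are given as the 250 bases before the annotated start (RefSeq, GRCm38.p6, 5′ to 3′ on the gene's strand), again with CpGs in capitals. They differ in CpG number from 1 for Myh4 to 9 for Cacna1s. The lower bins of Cacna1s and Myh2 cover these bases, and those of Myh4 and 2310065F04Rik lie beside them, within 500 bp of the start.
Cacna1s, chr1:136052561-136052810, + strand: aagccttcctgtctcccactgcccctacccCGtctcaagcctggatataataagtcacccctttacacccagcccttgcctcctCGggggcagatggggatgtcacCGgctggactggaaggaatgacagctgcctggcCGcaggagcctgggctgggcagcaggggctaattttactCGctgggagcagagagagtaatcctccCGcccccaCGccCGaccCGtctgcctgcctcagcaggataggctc
Myh2, chr11:67170777-67171026, + strand: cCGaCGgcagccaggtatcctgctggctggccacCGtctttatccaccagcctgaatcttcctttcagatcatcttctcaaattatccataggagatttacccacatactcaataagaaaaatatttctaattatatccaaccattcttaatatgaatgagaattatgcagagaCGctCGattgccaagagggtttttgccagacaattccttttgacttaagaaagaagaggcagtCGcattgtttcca
Myh4, chr11:67237562-67237811, + strand: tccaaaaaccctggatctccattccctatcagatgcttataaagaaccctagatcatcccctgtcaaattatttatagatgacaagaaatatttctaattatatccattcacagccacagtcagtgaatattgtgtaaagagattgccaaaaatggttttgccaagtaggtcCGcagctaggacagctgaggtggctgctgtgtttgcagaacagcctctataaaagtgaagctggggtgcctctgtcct
2310065F04Rik, a long non-coding RNA gene between Myh3 and Myh2, chr11:67120081-67120330, − strand: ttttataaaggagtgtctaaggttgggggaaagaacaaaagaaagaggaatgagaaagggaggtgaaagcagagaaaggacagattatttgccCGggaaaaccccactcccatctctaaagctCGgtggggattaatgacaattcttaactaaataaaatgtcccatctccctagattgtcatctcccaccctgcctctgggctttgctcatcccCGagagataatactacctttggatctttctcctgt

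Muscle libraries had 135254786 to 141889499 reads counted on bins and T cell libraries 188758989 to 200456498, of which 74215 to 87167 per library fell on the 6 loci. Between 11.2% and 29.8% of muscle reads and between 55.8% and 61.2% of T cell reads lay in the 1000 fullest bins. The 28-m muscle library stood apart, with an SD of log2 counts over bins of 0.63 against 0.93 and 1.07 in the other muscle libraries. Tissue identity was checked at promoters of marker genes. Of 4 skeletal muscle markers with a measured promoter bin 3 were lower in muscle, against 23.4% of all genes, and 2 of 6 cardiac markers were lower. The part of cell composition in the results below was not tested.

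Muscle had fewer reads than T cells at many bins of the 6 loci. Of the 1670 bins with a mean normalized read count of at least 10, 159 (9.52%) were lower in muscle and 13 (0.778%) higher, by limma's test over the 6 libraries with age as a term (adjusted p under 0.05 and more than 2-fold). Over all 2261154 bins tested, 5.02% were lower and 2.37% higher (4.48% and 3.67% with TMM scaling). The other 690 bins of the loci were too sparse to test, with a median level of 4.51 reads and a mean of 2.76 CpGs against 7.83 in the tested bins. Bins with more CpGs were called more often. In bins of 1 to 4 CpGs 19 of 369 (5.15%) were lower against 1.32% of all such bins, in bins of 5 to 9 CpGs 74 of 836 (8.85%) against 5.46%, and in bins of 10 or more CpGs 66 of 462 (14.3%) against 11.7%. The count moved with the scale and with the libraries in the fit. When all libraries were scaled to the same sum, 9 bins (0.539%) were lower and 294 (17.6%) higher, against 0.749% and 36.3% of all bins; without the 20-m libraries 15 (0.898%) were lower, against 1.04% of all bins, and without the 28-m libraries 103 (6.17%), against 3.15%. Leaving out the libraries of 1 age leaves 1 residual degree of freedom in place of 2. Without the 2-m libraries, with the same 1 degree of freedom, 162 bins (9.70%) were lower, against 4.85% of all bins. The mean log2 difference over the loci was −0.48 without the 20-m, −0.39 without the 28-m and −0.65 without the 2-m libraries, against −0.51 with all.

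Ryr1 held the highest share of bins lower in muscle, 43 of 213 (20.2%), followed by Cacna1s with 13 of 99 (13.1%), Neb with 32 of 321 (9.97%), the fast Myh cluster with 36 of 481 (7.48%), Ttn with 31 of 445 (6.97%) and Myh6/Myh7 with 4 of 111 (3.60%). The shares, and with them the order of the loci, moved with the libraries and the scale. Without the 20-m libraries Ryr1 had 5 lower bins, Cacna1s 2, the fast Myh cluster 3, Ttn 3, Neb 1 and Myh6/Myh7 1, so that the fast cluster (0.624%), Ttn (0.674%) and Neb (0.312%) were then below the 1.04% of all bins. The mean log2 differences were then −0.67 at Ryr1 and at Ttn, −0.56 at Cacna1s, −0.43 at Myh6/Myh7, −0.34 at Neb and −0.32 at the fast cluster, close to those of all 3 ages given below for each locus but Neb (−0.44). Without the 28-m libraries the counts were 31, 8, 17, 20, 24 and 3 in that order. Myh6/Myh7 was below the share of all bins here, but above it with TMM scaling (5 of 111, against 4.48%), with a mean of at least 5 (4.03% against 3.68%), with no filter (2.86% against 1.92%), with no age term (8.11% against 7.47%) and without the 2-m libraries (5.41% against 4.85%). On the scale relative to bins of equal CpG number described below, Neb had 8 lower bins (2.49%) and Ryr1 2 (0.939%), against 0.449% of all bins. In Ryr1 the share rose from 18 of 98 bins (18.4%) with 5 to 9 CpGs to 23 of 83 (27.7%) with 10 or more. Over all bins it also rose between these classes, from 5.46% to 11.7%. Bins higher in muscle numbered 7 in the fast Myh cluster, 2 in Ttn, 2 in Ryr1, 1 in Neb, 1 in Myh6/Myh7 and 0 in Cacna1s.

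The mean log2 difference between muscle and T cells over the bins of the 6 loci was −0.23 at 2 m, −0.56 at 20 m and −0.74 at 28 m, against −0.03, −0.05 and −0.25 over all bins tested. It was −0.74 ± 0.32 (SD over the 3 ages) at Ryr1, −0.67 ± 0.37 at Ttn, −0.52 ± 0.19 at Cacna1s, −0.44 ± 0.20 at Neb, −0.40 ± 0.32 at Myh6/Myh7 and −0.32 ± 0.23 at the fast Myh cluster. Scaling libraries to the same sum shifted the mean of all bins to 0.92 and turned the sign at each of the 6 loci, to between 0.30 at Ryr1 and 0.72 at the fast Myh cluster. Each bin was therefore also set against all tested bins with the same number of CpGs in the same library, a relative scale that is nearly free of any factor common to a library. On it Neb was at −0.20, −0.61 and −0.26 at 2 m, 20 m and 28 m, Ryr1 at −0.25, −0.54 and −0.15, Ttn at −0.19, −0.40 and −0.32, and Cacna1s at −0.28, −0.22 and −0.16. At these 4 loci the difference between muscle and T cells was below that of bins of equal CpG number at each age; the levels themselves were above those of such bins in T cells at all 4 loci, and at Ttn also in muscle. The difference at the fast Myh cluster was nearer to 0, at −0.02, −0.15 and −0.08, and that at Myh6/Myh7 was 0.00, −0.06 and −0.06. On the relative scale the muscle and T cell libraries did not overlap at 5 of the loci. There the exact two-sided permutation test gave p = 0.1, the smallest that 3 libraries against 3 allow, and at Myh6/Myh7 this permutation test gave p = 0.3. The test sets aside that both tissues of an age came from the same mice. On the log2 scale of the read counts the libraries overlapped at none of the 6 loci, and not over all tested bins either. The lack of overlap in read counts is thus not particular to these loci.

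**Figure D1:**
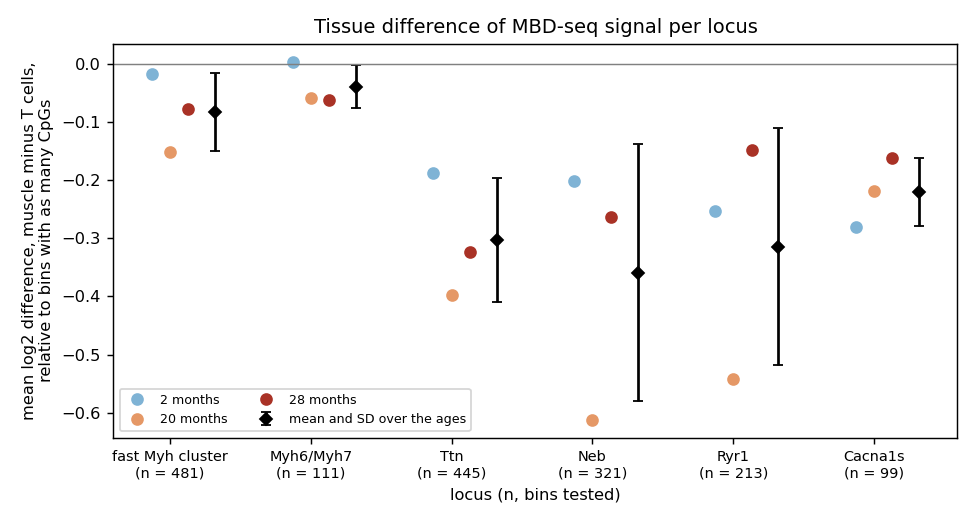
Mean log2 difference between muscle and T cells at each of the 6 loci, relative to bins with the same CpG number (y axis), at 2, 20 and 28 months (points), with the mean and SD over the 3 ages (diamonds and bars). Ttn, Neb, Ryr1 and Cacna1s lie below 0 at every age, between −0.15 and −0.61, whereas Myh6/Myh7 stays between −0.06 and 0.00.

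The genes of the fast Myh cluster differed in order. Among the 6 myosin genes Myh4, the gene of the IIb chain, had the lowest relative difference, −0.27, −0.50 and −0.56 at 2 m, 20 m and 28 m, and 7 of its 39 bins were lower in muscle. Median levels over Myh4 bins were 38.2, 34.5 and 23.6 in muscle and 53.8, 60.8 and 60.8 in T cells. Myh1 followed with a relative mean of −0.19 ± 0.18 (SD over 3 ages), Myh2 with −0.13 ± 0.22, Myh3 with −0.07 ± 0.13 and Myh13 with −0.04 ± 0.13; these neighbours in the order differed by less than their spread over the ages. Myh8, the perinatal chain, was the only myosin gene of the cluster above 0 at each age, at 0.18, 0.15 and 0.07. On the log2 scale of the read counts the mean difference of Myh8 was −0.11. It had 0 bins lower and 3 bins higher in muscle, with median levels of 37.8, 36.2 and 30.0 in muscle and 33.5, 39.5 and 42.3 in T cells. Being close paralogs, the Myh genes can share reads, and how reads with several matches were placed bears on their bins.

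Runs of neighbouring bins called lower occurred outside the coding genes as well. The cluster held 11 runs of at least 2 bins, 23 bins in all, and runs were not counted over all bins. The one with the largest summed difference lay between genes at chr11:67124501-67126000 and held 36 CpGs. Its central bin had 20.9, 11.8 and 12.7 normalized reads in muscle at 2 m, 20 m and 28 m and 66.0, 58.4 and 48.9 in T cells, a log2 difference of −1.90 (SE 0.38, adjusted p = 5.34e-05, limma). A second run, chr11:67139501-67140500, lay in an intron of the non-coding gene Gm31285, with 27.3, 36.6 and 23.3 reads in muscle and 84.3, 111.9 and 111.7 in T cells per bin. The third, chr11:67120501-67121500, began within 500 bp before the start of 2310065F04Rik, with 10.9, 6.31 and 11.1 reads in muscle and 36.5, 33.5 and 24.5 in T cells. In each of these runs every muscle library was below every T cell library. All bins of the first run were called in 3 of 13 alternative analyses and those of the other two in 9 each, and 0 bins of the 3 runs were called with same-sum scaling, on the relative scale or without the 20-m libraries. Without the 20-m libraries the mean differences of the runs were −1.4997, −1.88 and −1.36, against −1.55, −1.78 and −1.72 with them.

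At Myh6/Myh7 the tissue difference of the 2 genes was close to that of bins of equal CpG number, with relative means of 0.04 ± 0.13 for Myh6 (0 of 45 bins lower) and −0.04 ± 0.12 for Myh7 (2 of 40 lower). Median levels over Myh7 bins were 48.2, 39.2 and 30.9 in muscle and 52.3, 52.9 and 66.1 in T cells. The only run of 2 bins lay in an exon of Gm31251, a non-coding gene that overlaps Myh7, at chr14:54996501-54997500. Its stronger bin had 8.19, 8.42 and 12.1 reads in muscle and 29.4, 24.3 and 46.3 in T cells (−1.67, SE 0.38, adjusted p = 0.000841). Neither bin of the run was called without the 28-m libraries, with same-sum scaling or on the relative scale, and 1 was called without the 20-m libraries; the mean difference of the run was −1.2997 without the 28-m and −1.34 without the 20-m libraries, against −1.44 with all. The bin over the start of Gm31251, chr14:54975001-54975500, which also lies within 500 bp of the microRNA gene Mir208b, had 30.0, 28.6 and 20.4 reads in muscle and 48.7, 98.6 and 89.9 in T cells, a log2 difference of −1.51 (SE 0.42, adjusted p = 0.00981).

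Ttn and Neb encode the 2 filament rulers. In Ttn, chr2:76703984-76982547 on the − strand, 30 of 432 bins were lower (6.94%, against 5.02% of all bins), and its relative mean was −0.30 ± 0.10. Median Ttn levels were 45.9, 36.2 and 30.6 in muscle and 58.9, 65.7 and 71.4 in T cells. In the coding exon bin at chr2:76909001-76909500 muscle had 27.3, 28.6 and 23.6 reads and T cells 86.3, 86.4 and 109.7 (−1.79, SE 0.43, adjusted p = 0.00193). Neb, chr2:52136647-52338798 on the − strand, had 28 of 273 bins lower (10.3%) and a relative mean of −0.41 ± 0.24, with the widest gap at 20 m (−0.69). Its lowest bin, in a coding exon at chr2:52272501-52273000, had 6.37, 3.37 and 6.37 reads in muscle and 25.4, 38.9 and 25.1 in T cells, 4.88-fold lower (SE of the log2 difference 0.48, adjusted p = 0.000159). In the run next to it, chr2:52270501-52271500, the first bin had 3.64, 10.1 and 5.74 reads in muscle and 30.5, 46.2 and 18.5 in T cells (−2.13, SE 0.45, adjusted p = 0.00017). Without the 20-m libraries 0 bins of this run and 0 of the Ttn run that holds the bin above were called, though the mean differences, −2.05 and −1.75, were as large as with them (−2.001 and −1.71). With same-sum scaling 0 bins were called as well, at −0.97 and −0.68.

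Ryr1, chr7:29003340-29125151 on the − strand, carried 9 of the 32 runs of all loci and 29 of their 77 bins. Its locus also had the highest share of bins called lower, 20.2% against 5.02% of all bins, and runs were not counted over all bins. Its deepest run, chr7:29043001-29046000, was 6 bins long, held 75 CpGs over coding exons and introns, and lay about 80 kb into the gene. Mean reads per bin were 20.8, 15.3 and 20.8 in muscle and 70.4, 101.4 and 103.8 in T cells, a mean log2 difference of −2.47 ± 0.30. The bin shown above as lower, with 10 CpGs, had 0, 1.68 and 5.74 reads in muscle and 30.5, 37.7 and 34.4 in T cells, 13.4-fold lower (log2 difference −3.74, SE 0.76, adjusted p = 9.1e-05); 11 and 87 raw reads stood behind these values. Its neighbour at chr7:29045001-29045500 had 3.64, 16.0 and 24.9 reads against 50.8, 93.7 and 115.0 (−2.71, SE 0.38, adjusted p = 8e-10). All 6 bins were called in 9 of 13 alternative analyses. With a mean of at least 30 only 4 were tested and all 4 called, whereas 4 of 6 were called with same-sum scaling, 1 without the 20-m libraries, with a mean difference of −2.30, and 0 on the relative scale, where the mean difference of the run was −1.70. Closer to the start, the run chr7:29108001-29110000 had mean reads of 35.3, 28.0 and 19.3 in muscle and 76.6, 113.8 and 92.9 in T cells, and the run chr7:29115001-29117000 had 39.4, 27.6 and 23.7 against 72.1, 81.2 and 87.9. In both, each muscle library was below each T cell library. The 4 bins of the first were all called in 9 of the 13 alternatives and those of the second in 1, and 0 bins of either were called without the 20-m libraries, where the mean differences were −1.63 and −1.29 against −1.85 and −1.37 with them.

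Cacna1s, the partner of Ryr1 in excitation-contraction coupling (chr1:136052811-136119822, + strand), had 13 of 84 bins lower (15.5%) and 0 higher, against 5.02% and 2.37% of all bins. Its relative mean was −0.27 ± 0.05. The bin over its start, with 16 CpGs, had 17.3, 21.9 and 17.2 reads in muscle and 93.4, 84.0 and 88.6 in T cells, 4.55-fold lower (SE of the log2 difference 0.41, adjusted p = 1.4e-05). Values within each tissue were close, and the groups were far apart. Over the whole locus 13 of 99 bins were lower. Their number was 2 (2.02%) without the 20-m libraries, against 1.04% of all bins, and 1 (1.01%) on the relative scale, against 0.449%.

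**Figure D2:**
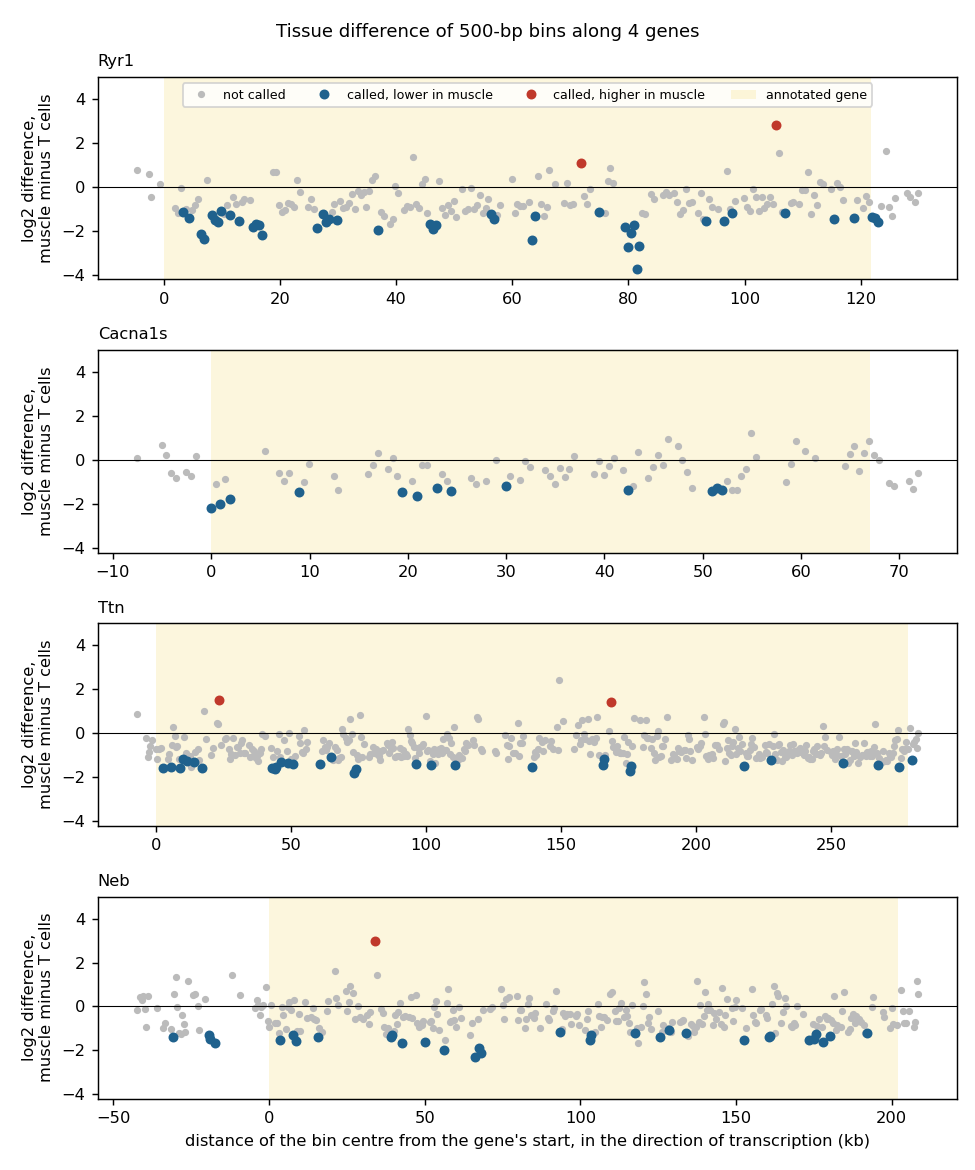
Log2 difference between muscle and T cells (y axis) of each tested bin along Ryr1, Cacna1s, Ttn and Neb, against the distance of the bin's centre from the gene's start in kb (x axis). Blue and red points are bins called lower or higher in muscle, and the shaded band is the annotated gene. The run of 6 low bins in Ryr1 is visible near 80 kb, and the bin at −2.19 over the Cacna1s start stands at the left edge of that gene.

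The difference was not even along the genes. Each gene was cut into 4 parts of equal length, numbered from its start. On the relative scale part 1 of Ryr1 was at −0.62 ± 0.22 (SD over 3 ages) with 19 of 50 bins lower, and part 4 at −0.12 ± 0.23 with 6 of 48 lower. Cacna1s went from −0.61 ± 0.19 and −0.50 ± 0.05 in parts 1 and 2 to −0.13 ± 0.10 and 0.03 ± 0.15 in parts 3 and 4. Ttn weakened more evenly, from −0.43 ± 0.09 (15 of 99 bins lower) through −0.35 and −0.27 to −0.20 ± 0.12 (5 of 130). Myh4 had its lowest mean, −0.76 ± 0.41, in part 1, over 8 bins. Neb did not have this order, at −0.25 ± 0.28, −0.49 ± 0.25, −0.40 ± 0.26 and −0.52 ± 0.22 in parts 1 to 4. Myh8 was at −0.06 ± 0.08, 0.14 ± 0.24, 0.34 ± 0.14 and 0.12 ± 0.08 in parts 1 to 4.

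**Figure D3:**
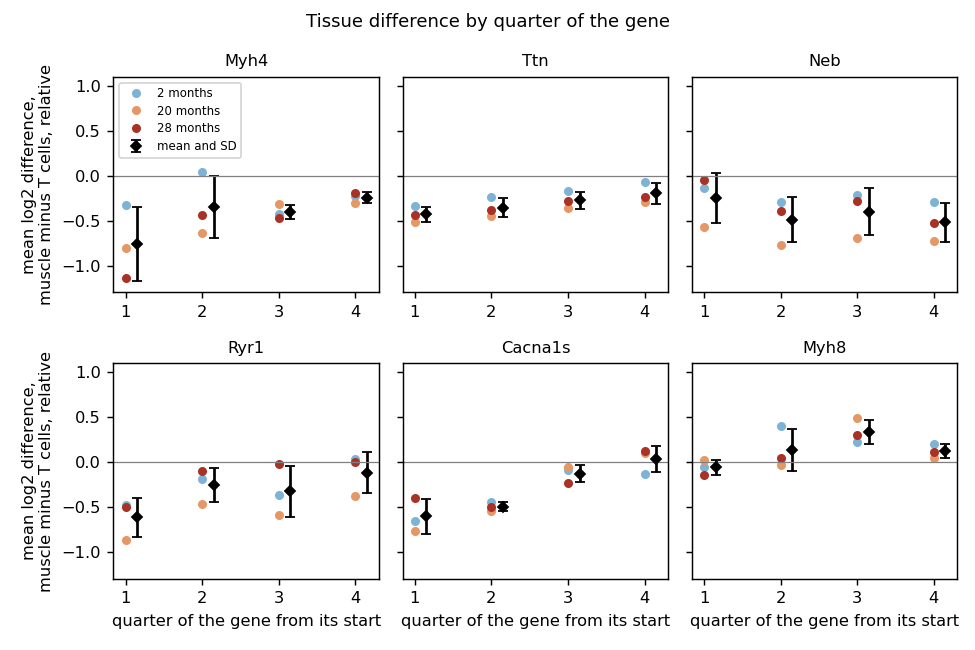
Mean relative log2 difference between muscle and T cells (y axis) in 4 equal parts of 6 genes numbered from the start (x axis), at 2, 20 and 28 months (points), with the mean and SD over the ages (diamonds and bars). Ryr1, Cacna1s, Ttn and Myh4 are lowest in part 1 (−0.62, −0.61, −0.43 and −0.76), whereas Neb is at −0.25, −0.49, −0.40 and −0.52 in parts 1 to 4.

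By place in the annotation, 82 of 917 bins on coding exons (8.94%), 51 of 485 on introns (10.5%), 9 of 52 on other exons (17.3%) and 17 of 216 between genes (7.87%) were lower in muscle. Over all bins tested 5.02% were lower, and shares by place were not taken over all bins. Mean CpG numbers differed between the places, at 9.22 on coding exons, 5.88 on introns, 7.48 on other exons and 6.39 between genes. On the relative scale bins between genes were at −0.03 ± 0.13, those on introns at −0.30 ± 0.15 and those on coding exons at −0.23 ± 0.12. The tissue difference of bins between genes was thus closest to that of other bins of their CpG number.

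Promoter bins, taken within 500 bp of a start, were lower in muscle at 3 of the 12 named genes (25.0%), Myh2, Myh4 and Cacna1s, and higher at 0; over 26710 genes with a tested promoter bin the shares were 23.4% and 4.35%. At Myh2 the bin chr11:67170501-67171000 had 18.2, 32.8 and 23.6 reads in muscle and 55.8, 53.5 and 66.1 in T cells (−1.23, SE 0.40, adjusted p = 0.0347). At Myh4 the bin chr11:67237001-67237500 had 35.5, 40.4 and 33.1 reads against 100.5, 118.0 and 141.4 (−1.69, SE 0.47, adjusted p = 0.0103), and it is shared with the start of Myhas, a non-coding gene that runs from there on the other strand. At 2310065F04Rik the bin chr11:67120501-67121000 had 9.10, 2.53 and 9.56 reads against 35.5, 30.4 and 18.5 (−1.97, SE 0.46, adjusted p = 0.00108). In these bins every muscle library lay below every T cell library. At Ryr1 the tested promoter bin, chr7:29125501-29126000, had 17.3, 9.26 and 18.5 reads in muscle and 26.4, 4.87 and 15.9 in T cells and did not pass the test (0.14, SE 0.45, adjusted p = 0.858).

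Genes of the same machinery elsewhere in the genome were looked at as a list of 42 other sarcomere and excitation-contraction genes. Of the 33 with a tested promoter bin, 22 (66.7%, against 23.4% of all genes) had a bin lower in muscle and 0 a bin higher, with a median log2 difference of −1.33 against −0.47 over all genes. Mybpc2, the fast myosin-binding protein C, was at 0, 5.05 and 3.82 reads in muscle and 40.6, 63.9 and 46.9 in T cells (−4.01). Tpm2, beta-tropomyosin, was at 17.3, 4.21 and 10.2 against 67.0, 99.8 and 107.1 (−3.15). Among genes of calcium handling, Casq1, the calcium store protein of the sarcoplasmic reticulum, was at −2.30 and the junctional protein Jph2 at −2.02; Tcap, which caps titin at the Z-disc, was at −1.72.

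Promoter windows of 300 bases were found in RefSeq for 11 of the 12 named genes and 25 of the 33 genes of the loci; Myh7 has 2. Of the 12 windows, 9 held the E-box CANNTG against 72.3% of 32851 promoters, 4 held the MEF2 site (Myh1, Myh4, Myh8 and Ttn) against 3.19%, 2 held the CArG box (Myh4 and Myh13) against 1.63%, and 6 held TATAAA against 13.6%, on both strands. The Myh4 window held all 4 motifs and 1 CpG. Matches of different motifs may overlap, and the letters only describe these windows.

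All 13 bins higher in muscle stood alone, with no called neighbour of the same direction. They were 0.778% of the loci's bins, against 2.37% of all bins, and how often such bins stand alone was not counted over all bins. The strongest by fold were a Neb intron bin at chr2:52304501-52305000, with 28.2, 21.0 and 21.7 reads in muscle and 3.05, 0 and 6.61 in T cells (7.80-fold, SE of the log2 difference 0.89, adjusted p = 0.0187), and the CpG-dense Ryr1 bin shown above, at chr7:29019501-29020000. That bin, over a coding exon with 62 CpGs, had 27.3, 26.9 and 19.1 reads in muscle and 5.08, 0 and 6.61 in T cells (log2 difference 2.81, SE 0.77, adjusted p = 0.00859), from 92 and 10 raw reads. Few reads were thus captured there in T cells, and more in each muscle library. A second CpG-dense exon bin of Ryr1, chr7:29053001-29053500, had 29.1, 29.5 and 22.3 reads against 16.2, 8.52 and 11.9. In Ttn the exon bin chr2:76814001-76814500 had 53.7, 37.9 and 33.8 against 8.12, 14.6 and 25.1 (1.44, SE 0.37, adjusted p = 0.00363). Myh8 held 3 such bins, the strongest by fold at chr11:67296501-67297000, in an intron, with 16.4, 22.7 and 24.2 against 8.12, 1.22 and 6.61 (4.07-fold, log2 difference 2.03, SE 0.64, adjusted p = 0.0272), from 83 and 14 raw reads. Same-sum scaling raised the number higher in muscle to 294.

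At later ages, CpG-dense bins of the loci had fewer reads in muscle and more in T cells. There was 1 pool per age and tissue, no test over the ages was run, and values are descriptions. They are on the deposited scale and were not taken by CpG number on another. With same-sum scaling 9.04% of the loci's T cell bins were over 2-fold lower at 28 m and 1.86% higher. On the deposited scale these shares were 5.09% and 5.51%. In bins of 10 or more CpGs the median level was 77.3 at 2 m, 58.5 at 20 m and 37.0 at 28 m in muscle, and went from 93.4 to 110.7 and 122.9 in T cells. In bins of 5 to 9 CpGs it went from 32.8 to 28.6 and 24.9 in muscle and from 39.6 to 42.6 and 43.0 in T cells, and in bins of 1 to 4 CpGs from 16.4 to 16.0 and 17.9 and from 16.2 to 18.3 and 17.2. The order by CpG number held in each library, and its steps were smallest in the 28-m muscle library. Over all bins of 10 or more CpGs the mean log2 difference between 28 m and 2 m was −0.85 in muscle and 0.45 in T cells, close to the −0.91 and 0.40 of the 6 loci.

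**Figure D4:**
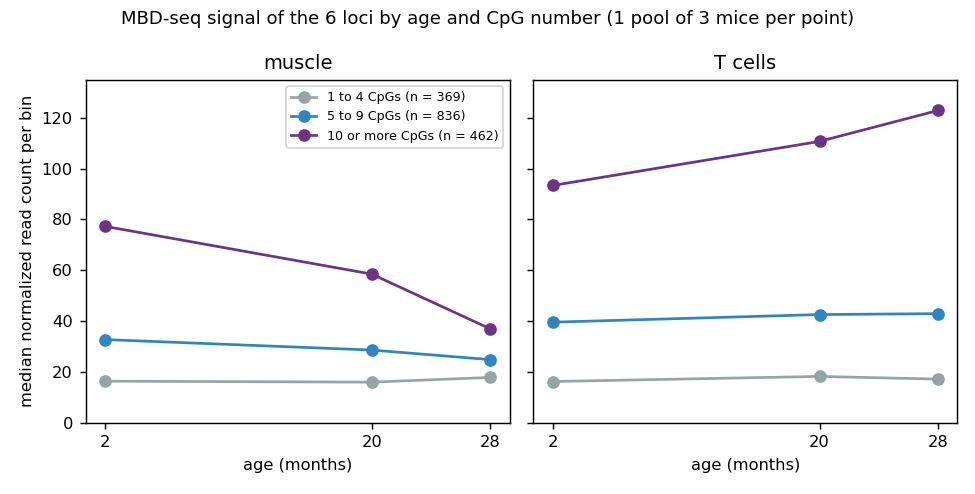
Median normalized read count per bin over the 6 loci (y axis) at 2, 20 and 28 months (x axis) in muscle and T cells, for bins of 1 to 4, 5 to 9 and 10 or more CpGs; each point is 1 pooled library. The CpG-dense bins go from 77.3 to 37.0 in muscle and from 93.4 to 122.9 in T cells, and the CpG-poor bins stay between 16.0 and 18.3.

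Counted by bin, 383 of 1670 (22.9%) were more than 2-fold lower at 28 m than at 2 m in muscle, against 15.6% of all bins, and 91 (5.45%) more than 2-fold higher, against 7.64%. At 20 m, with the 28-m library not used, 123 (7.37%) were lower, against 4.78%, and 62 (3.71%) higher, against 6.02%. In T cells 85 (5.09%) were lower at 28 m, against 9.04%, and 92 (5.51%) higher, against 7.17%; at 20 m the counts were 71 (4.25%) lower, against 8.11%, and 75 (4.49%) higher, against 6.03%. Downward changes in muscle were the only ones of these above the share of all bins; with same-sum scaling 5.81% of the loci's bins were lower at 28 m, against 4.82% of all bins, and with TMM scaling 10.9%, against 7.72%. On the relative scale, which removes what bins of equal CpG number did, the 6 loci moved by −0.15 in muscle from 2 m to 20 m (Ryr1 −0.26, Ttn −0.23, Neb −0.22, Myh6/Myh7 −0.09, and Cacna1s and the fast Myh cluster −0.01 each) and by −0.02 from 2 m to 28 m. At 28 m Ttn was at −0.11 against 2 m, Ryr1 at 0.09 and Cacna1s at 0.12, so the loci did not share a direction there.

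The muscle change differed with the level of a bin. With bins split into 3 classes by their level in T cells at 2 m, the lowest class changed by 0.20 on the log2 scale in muscle from 2 m to 28 m (234 of 557 bins lower), the middle by −0.35 (410 of 557) and the highest by −0.94 (538 of 556). In T cells, with classes from muscle, the changes were −0.10, 0.15 and 0.38. All tested bins were not split in this way. Of all tested bins with 10 or more CpGs, 90.9% were lower at 28 m than at 2 m in muscle, against 94.4% at the loci. The spread of log2 levels over the 1670 bins narrowed in muscle from 1.12 at 2 m to 0.98 at 20 m and 0.63 at 28 m. Over all bins tested the muscle spread went from 1.07 to 0.93 and 0.63, a narrowing of like size.

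The muscle RNA of the genes was measured in the same 3 mice per age that were pooled for MBD-seq. In bulk tissue, fewer cells of a type and less RNA per cell cannot be told apart. RNA-seq libraries had 20203833 to 71115244 reads in genes. Over all genes 16.6% passed limma's test at 20 m against 2 m, 13.8% at 28 m against 2 m and 0.379% at 28 m against 20 m. By direction, 9.42% were higher and 7.13% lower at 20 m, and 7.53% higher and 6.24% lower at 28 m. Of the 12 named genes, 4 were higher at 20 m (Myh3, Myh2, Myh7 and Neb), 4 at 28 m (Myh3, Myh2, Myh7 and Myh6), and 0 were lower (0 also at an unadjusted p under 0.05). Between 20 m and 28 m 0 passed limma's test, 2 had an unadjusted p under 0.05 (Myh3 and Cacna1s), and DESeq2 called 1. The order of levels per kb of transcript was led by Myh4, at a mean of 368603 normalized reads per kb, followed by Myh1 at 44126, Neb at 21859, Myh2 at 20883 and Ryr1 at 17085. Myh8 was at 976 per kb, Myh3 at 244, Myh13 at 95.2 and Myh6 at 42.0.

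Myh3, the embryonic chain, had 417, 407 and 427 normalized reads in the 3 mice at 2 m, 1756, 1271 and 1668 at 20 m and 2537, 2040 and 2614 at 28 m. The young mice lay below all older mice, with log2 differences of 1.89 (SE 0.13, adjusted p = 5.52e-06) at 20 m and 2.51 (SE 0.13, adjusted p = 8.46e-07) at 28 m. Myh7, the slow chain, had 2773, 44701 and 8400 reads at 2 m, 109827, 62731 and 88434 at 20 m and 107845, 80566 and 112463 at 28 m. One mouse at 2 m was far above the other 2, yet below every older mouse; the differences were 3.06 (SE 0.68, adjusted p = 0.00949) and 3.29 (SE 0.68, adjusted p = 0.00723). Myh2 rose by 0.80 (SE 0.20, adjusted p = 0.0186) and 0.70 (SE 0.20, adjusted p = 0.0386), Neb by 0.76 (SE 0.22, adjusted p = 0.0323) at 20 m, and Myh6 by 0.93 (SE 0.29, adjusted p = 0.0484) at 28 m. Myh3 and Myh7 kept the call in 18 of 18 alternatives, over which the Myh7 difference ran from 2.13 (without mouse 1 at 2 m) to 4.13 (without mouse 2 at 2 m) at 20 m and from 2.36 to 4.36 at 28 m, with the same mice left out. Myh2, Neb and Myh6 lost the call in several, though the direction held, between 0.46 and 1.25. With same-sum scaling all 3 lost it. With no filter Neb (adjusted p = 0.135), Myh2 at 28 m (0.0731) and Myh6 (0.0659) lost it, as did Myh2 at 28 m with quantile scaling (0.0603) and Myh6 with edgeR (0.0673) and a pseudocount of 0.1 (0.051). Myh2 lost it at 20 m without mouse 1 at 2 m or mouse 1 or 3 at 20 m (adjusted p up to 0.0845), and at 28 m without mouse 1 or 3 at 2 m, 1 at 20 m, or 1 or 3 at 28 m (up to 0.1502). Neb lost it without mouse 1 or 3 at 2 m or 1 or 2 at 20 m (up to 0.132), and Myh6 without mouse 1 or 3 at 2 m, 1 at 20 m or any mouse at 28 m (up to 0.179). Cardiac markers, 6 genes that include Myh6, summed to 198 to 511 normalized reads per library; their part in these differences was not tested. Without a stated strand setting, reads of Myh7 and of the overlapping Gm31251 cannot be told apart.

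Of the others, Myh4 had 2504920, 1955530 and 2662070 reads at 2 m and 2161460, 1664630 and 1990710 at 28 m (−0.29, adjusted p = 0.538). Ttn was at 0.64 (SE 0.38, adjusted p = 0.273) at 20 m, Ryr1 at 0.35 (SE 0.13, adjusted p = 0.0744) and Cacna1s at 0.10 (SE 0.09, adjusted p = 0.488). The non-coding 2310065F04Rik, with 1 tested promoter bin, lower in muscle than in T cells, fell with age: it had 1828, 2286 and 2717 reads at 2 m, 1334, 1294 and 1152 at 20 m and 1378, 1190 and 1248 at 28 m. The young mice lay above all older mice, and the log2 differences were −0.84 (SE 0.13, adjusted p = 0.00102) and −0.82 (SE 0.13, adjusted p = 0.0012).

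Among the 42 other sarcomere and excitation-contraction genes 13 were higher and 8 lower at 20 m, and 14 higher and 6 lower at 28 m. Over all genes the shares higher and lower were 9.42% and 7.13% at 20 m and 7.53% and 6.24% at 28 m. Between 20 m and 28 m the lowest adjusted p was 0.111, for Cacnb1. Examples chosen after their values were seen follow. At 20 m Tnnt1 rose by 2.71, Tnni1 by 2.67, Tnnc1 by 2.65 (the slow troponin subunits), Atp2a2, the slow calcium pump, by 2.64, Tpm3 by 2.35, Myl2 by 2.25 and Myl3 by 2.24. Casq2, the calcium store protein of slow and heart muscle, was at 0.74 and did not pass (adjusted p = 0.0525). Pvalb, the calcium buffer parvalbumin, was at −0.85, Casq1 at −0.84, Jph2 at −0.80, Mylpf, the fast regulatory light chain, at −0.66, Tpm2 at −0.52, Myl1, the fast essential light chain, at −0.50, Cacnb1 at −0.50 and Stac3 at −0.29, and these are the 8 that fell. Of genes of fast fibres, these did not pass at 20 m: Tnni2 was at −0.14, Tnnt3 at −0.18, Tnnc2 at −0.43, Actn3 at −0.18, Atp2a1 at −0.10 and Mybpc2 at 0.08. Of these, Actn3 (−0.52, adjusted p = 0.0425, limma) and Tnnc2 (−0.52, adjusted p = 0.0492) passed as lower at 28 m, and the others did not. The median over the list was −0.02 at 20 m and −0.14 at 28 m, against −0.02 and −0.01 over all genes.

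Across the 12 named genes the relative tissue difference in MBD-seq was lower where muscle RNA per kb was higher (Spearman's rho −0.71, Pearson's r −0.75; rho −0.64, −0.66 and −0.73 at 2 m, 20 m and 28 m). Within the 6 myosin genes of the fast cluster rho was −0.83, and −0.83, −0.60 and −0.77 at the 3 ages. Myh4, with the highest RNA level, had the lowest relative difference (−0.45), and Myh6 and Myh8, at 42.0 and 976 reads per kb, had the highest (0.04 and 0.13). Genes of 1 cluster share libraries, sequence and neighbourhood, so these are descriptions over genes and not over independent samples.

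**Figure D5:**
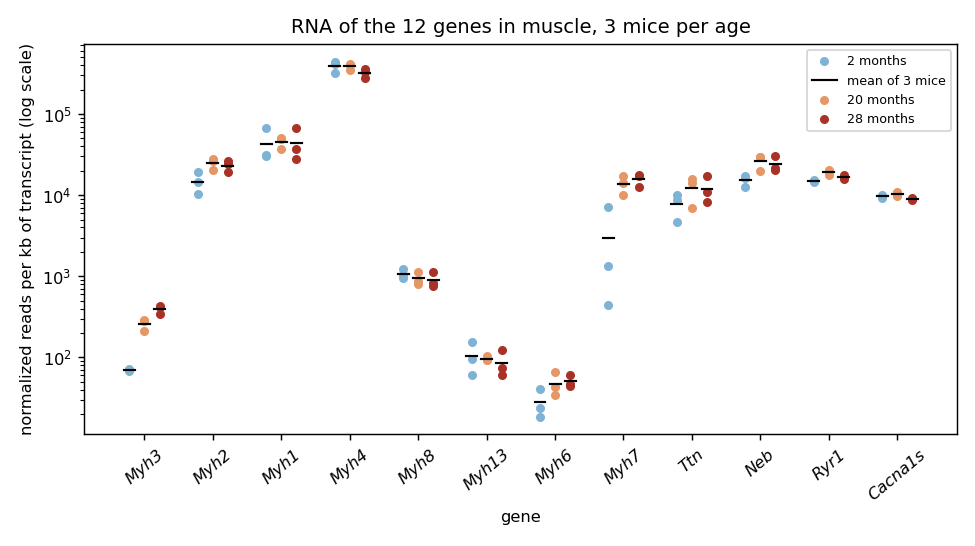
RNA of the 12 genes in muscle as normalized reads per kb of transcript (y axis, log scale) in 3 mice at each of 2, 20 and 28 months (points), with the mean of the 3 mice (bars). Myh3 and Myh7 are higher at 20 and 28 months than at 2 months in every mouse, and Myh4 is the highest gene at each age.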

How the data were processed

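MBD-seq values were deposited as signal: the authors trimmed reads (Trim Galore), aligned them with Bowtie2 to mm10, counted them in 500-bp bins (bedtools) and divided by DESeq2 size factors. RNA-seq values, also deposited as normalized signal, were HTSeq gene counts divided by DESeq2 size factors; the study's methods name HISAT2 as aligner and the labels' tool list TopHat. Every deposited value was a whole number of reads times 1 factor per library (100% within 0.01), so reads were recovered for edgeR 4.0.16 and DESeq2 1.42.0.

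Bins and genes with a mean of at least 10 were tested on log2(value + 1) with limma 3.58.1 (trend, R 4.3.3), MBD-seq with tissue and age as terms over 6 libraries, RNA-seq with age over 9. p-values were adjusted (Benjamini-Hochberg) over the whole table; fold changes on this scale understate changes of low values. Bins were called at adjusted p under 0.05 and over 2-fold. MBD-seq p-values of bins rest on how the tissue difference varied over the 3 ages, with limma's estimate also drawing on all tested bins. No 2 pools of a tissue shared an age, so the spread between pools of 1 age was not measured. Whether a muscle column holds 1 of the 2 capture rounds, and which, or both is not given. On simulated data the bin test recovered 56% of 4-fold and 24% of 2.8-fold changes. The simulated bins had 1 common dispersion and no age effect, unlike the data. The gene test (28 m against 2 m) recovered 92% of 4-fold and 69% of 2-fold changes. Of the same-numbered RNA libraries only those of number 3 correlated by over 0.1 in each pair, so numbers were not taken as pairs.

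Regions, gene lists and rules were chosen with earlier results of these data known. Named were the 12 muscle genes and other genes starting in the windows, in each locus up to 3 runs of called bins, the strongest bin per direction and bins in promoters; the Ryr1 and Ttn bins beyond these that were higher in muscle, and examples from the other lists, were picked after their values were seen, as was the relative scale. Sequences are from RefSeq (GRCm38.p6). A run of bins in Cacna1s and the T cell marker list are not reported here.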

Additional observations from a re-analysis of the deposited data

Results flagged for a closer look

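On the deposited scale, in bins of 10 or more CpGs, the 28 m to 2 m differences of the tissues had opposite signs. So had the 20 m to 2 m differences. With 1 pool per age and tissue this contrast of the tissues was not tested. The mean log2 difference between 28 m and 2 m was −0.91 in muscle and 0.40 in T cells over the 6 loci. It was −0.95 and 0.39 at the fast Myh cluster, −0.95 and 0.44 at Myh6/Myh7, −0.98 and 0.38 at Ttn, −0.77 and 0.49 at Neb, −0.79 and 0.38 at Ryr1, and −0.77 and 0.41 at Cacna1s. Over all tested bins of 10 or more CpGs it was −0.85 and 0.45, so the opposite signs are not particular to these loci.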

How the results depend on the processing

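Where a value moved, the cause was not tested. Bins of the 6 loci lower in muscle (159) numbered 9 with same-sum scaling, 86 with quantile scaling, 16 on the relative scale (0.958% against 0.449% of all bins; chosen after seeing the data) and 276 with no age term; leaving out the libraries of an age gave 15 (without 20 m) to 162 (without 2 m). Bins higher in muscle (13) numbered 23 with a mean of at least 5, 0 with a mean of at least 30, 294 with same-sum scaling and 1 on the relative scale, and 1 to 13 with an age left out. Lower bins were 92.4% of the calls at the loci and 2.97% with same-sum scaling. Over all bins, 113404 lower and 53496 higher calls became 16927 and 819911 with same-sum scaling, 101377 and 82917 with TMM scaling, 63103 and 31488 with quantile scaling, 10155 and 3488 on the relative scale, and 23598 and 9195 without the 20-m libraries.

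The mean log2 difference of the 6 loci (−0.51) was −0.80 with a mean of at least 30, −0.10 with no filter, −0.25 with quantile scaling and −0.23 on the relative scale, and 0.54 with same-sum scaling. Same-sum scaling also reversed each locus: the fast Myh cluster to 0.72, Myh6/Myh7 to 0.64, Ttn to 0.38, Neb to 0.60, Ryr1 to 0.30 and Cacna1s to 0.52. With no filter the fast Myh cluster was at 0.11, Neb at 0.050 and Cacna1s at 0.013.

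The share of bins over 2-fold lower at 28 m in muscle (22.9%) was 35.5% with a mean of at least 30, 16.6% with no filter, 5.81% with same-sum and 10.9% with TMM scaling, and the share higher (5.45%) 0.196%, 19.1%, 12.8% and 9.70%. In T cells the share lower (5.09%) was 0.884%, 12.4%, 9.04% and 6.29% in that order, and the share higher (5.51%) 8.22% with no filter, 1.86% with same-sum and 3.77% with TMM scaling.

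The 4 named genes higher in RNA at 20 m became 2 with same-sum scaling and 2 to 5 with a mouse left out; the 4 at 28 m became 2 with no filter or same-sum scaling and 2 to 5 with a mouse left out. With the replicate number as a block, 7 were higher at 20 m, 1 was lower at 28 m and 1 was higher at 28 m against 20 m, where DESeq2 also called 1; same-numbered samples correlated by 0.11 to 0.16 for number 3 and by under 0.1 for the others, and the labels give no shared animal, batch or day; number 3 also had the lowest share of reads not assigned to a gene at each age (37.9%, 41.5% and 38.9%). Over all genes, 2181 calls at 20 m became 586 and 1814 at 28 m became 554 with same-sum scaling, and 50 between 20 m and 28 m became 225 with DESeq2, 138 with the block and 24 with same-sum scaling; leaving out a mouse gave 1081 to 2231, 963 to 1846 and 14 to 88. The 690 sparse bins were left out by the filter on low values; with a mean of at least 5, 1986 bins were tested and 163 were lower and 23 higher.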
